A study of Mus musculus with 6 samples.

Results

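Skeletal muscle fibre genes, 32 in number, were followed through 6 RNA-seq libraries of mouse femur. They were chosen by name, as genes of the sarcomere, the calcium stores and the energy supply of muscle fibres, and all 32 were found among the 43346 genes of the count table. By textbook knowledge 12 were classed as forms of fast fibres, 6 as forms of slow fibres and 14 as shared by fibre types. A form classed as shared may still be more abundant in 1 fibre type. The femurs came from C57BL/6 mice, an inbred laboratory strain, aged 4 months when radiated, and were taken on day 21. In the radiated group (3 libraries) the distal metaphysis of the right femur, the flared end of the shaft near the knee, had received 24 Gy over 5 mm, in 1 image-guided dose. The non-radiated group (3 libraries) was the same 5 mm of the left femur of radiated mice, at 0 Gy, so the controls too came from animals that had been radiated, in the other leg. The labels name no further agent or allele. The bone piece was cut out and its muscle was removed before RNA isolation, per the labels' protocols. The comparison therefore concerns a tissue that had been trimmed away: which muscle transcripts were still counted, in which libraries, and of which fibre type.

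A muscle fibre shortens when thick filaments of myosin pull on thin filaments of actin, and the troponin and tropomyosin proteins of the thin filament open that contact when calcium leaves the sarcoplasmic reticulum. Most of these proteins exist in a fast and a slow form, made from separate genes, and the myosin heavy chain gene defines the fibre type. Myh4 marks the fastest, glycolytic type IIb fibre, Myh1 type IIx, Myh2 the fast but oxidative type IIa, and Myh7 the slow, oxidative type I. Slow forms of several of these proteins are also the forms of the heart ventricle.

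Because the results turn on the fast and slow forms, the 250 bases before the RefSeq start of 4 of these genes are shown (GRCm38.p6, on the gene's strand, 5′ to 3′). Myh4 stands for fast forms (chr11:67237562-67237811, plus strand), Acta1, the skeletal actin gene, for shared forms (chr8:123894776-123895025, minus strand), and Myh7 (chr14:54994627-54994876, minus strand) and Myl3 (chr9:110763428-110763677, plus strand) for slow forms. Capitals mark matches, on either strand, to the E-box CANNTG, which myogenic factors can bind, to the MEF2 motif and to the CArG box.
Myh4: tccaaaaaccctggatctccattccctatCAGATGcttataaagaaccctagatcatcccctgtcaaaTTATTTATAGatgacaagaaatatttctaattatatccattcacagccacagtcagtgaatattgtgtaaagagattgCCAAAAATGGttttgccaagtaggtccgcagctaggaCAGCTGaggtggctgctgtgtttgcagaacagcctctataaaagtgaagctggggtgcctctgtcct
Acta1: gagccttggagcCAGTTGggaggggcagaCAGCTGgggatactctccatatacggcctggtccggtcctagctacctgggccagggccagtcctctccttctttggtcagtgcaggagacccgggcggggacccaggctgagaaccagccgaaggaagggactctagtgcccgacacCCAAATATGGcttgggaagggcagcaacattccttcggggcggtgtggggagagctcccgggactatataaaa
Myh7: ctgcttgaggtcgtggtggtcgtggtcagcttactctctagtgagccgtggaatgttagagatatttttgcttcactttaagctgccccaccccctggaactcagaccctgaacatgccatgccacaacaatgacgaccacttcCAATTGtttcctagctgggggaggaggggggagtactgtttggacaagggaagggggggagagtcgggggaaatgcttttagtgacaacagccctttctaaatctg
Myl3: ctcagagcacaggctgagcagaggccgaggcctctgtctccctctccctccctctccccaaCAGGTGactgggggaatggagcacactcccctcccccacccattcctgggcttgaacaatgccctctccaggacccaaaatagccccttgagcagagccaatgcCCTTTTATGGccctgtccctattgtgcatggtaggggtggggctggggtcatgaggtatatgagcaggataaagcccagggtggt
In the Myh4 window the E-box form CAGCTG lay from -67 to -62, the MEF2 match from -182 to -173 and the CArG match from -104 to -95, counted back from the start. The Acta1 window held CAGCTG from -221 to -216 and a CArG match from -73 to -64, and the Myl3 window a CArG match from -85 to -76 but no CAGCTG. Only 1 match, an E-box at -106 to -101, lay in the Myh7 window. RefSeq windows were found for 26 members with 32 starts. CAGCTG, which is counted among the CANNTG matches as well, was present before 16 of the 32 starts, or 50%, against 13.0% of all 32851 starts in the table. By class it stood before 4 of 10 fast, 3 of 9 slow and 9 of 13 shared starts. Any CANNTG stood before 28 member starts (87.5%, against 66.2% of all), a MEF2 match before 4 (12.5%, against 2.92%) and a CArG match before 3 (9.38%, against 1.47%). These are matches of letters and were not tested.

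Muscle transcripts were a small part of every library and were far from even among the radiated ones. Total gene counts ran from 34034251 to 48708383 per library, and the 32 members together held 0.0698%, 0.0712% and 0.0558% of them in non-radiated libraries 1, 2 and 3. In radiated libraries 1, 2 and 3 they held 0.228%, 0.743% and 0.0753%. The 95% Wilson intervals, which cover counting error only, were 0.226% to 0.229% for radiated library 1, 0.741% to 0.746% for radiated library 2 and 0.0745% to 0.0762% for radiated library 3. By share of all counts, every radiated library was thus above every non-radiated one, but radiated library 3 only by a little. The radiated libraries differed more among themselves than the non-radiated ones did. The mean log2 share was 1.84 higher in the radiated group (two-sided exact permutation p = 0.1, the smallest that 3 against 3 libraries allow). Within replicate numbers the log2 difference was 1.71, 3.38 and 0.43 (exact sign-flip permutation p = 0.25, the smallest that 3 pairs allow). Ttn, the gene of the giant sarcomere spring titin, whose length in the table is 116825 bases, supplied 45.9% to 52.4% of the member counts.

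One feature of the whole table touches these levels. In non-radiated library 2 a single row, AY036118, held 32.9% of all counts, against 0.321% to 5.61% in the others, so levels below are CPM, a gene's count relative to the size of its library, with library sizes scaled by TMM (the trimmed mean of M-values), which limits the weight of such a row. On this scale non-radiated library 2 was the highest non-radiated library for 32 of 32 members. Radiated library 2 was the highest of all 6 for 32 of 32 members. Non-radiated library 3 was the lowest of the 6 for 20 members. The summed CPM of the members was 651, 985 and 540 in the non-radiated libraries and 2160, 6779 and 699 in the radiated ones, so on this scale radiated library 3 lay below non-radiated library 2. The full separation of the groups by share of all counts, where AY036118 is part of the total, was thus absent here. The permutation p given above is for those shares only. Fewer muscle cells and less RNA per muscle cell cannot be told apart in such bulk samples.

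**Figure D1:**
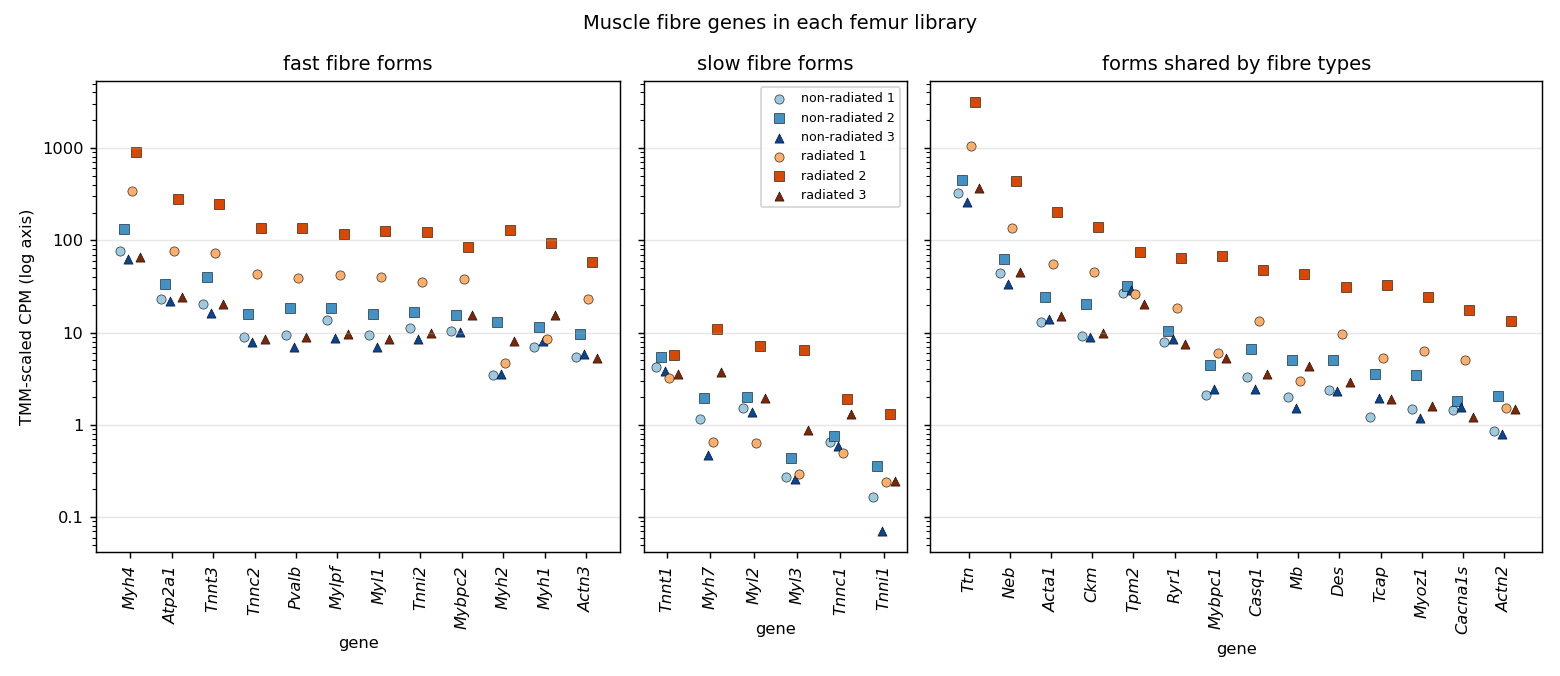
TMM-scaled CPM on a log axis for each of the 32 members, grouped by class and ordered by mean level; each point is 1 library. Radiated library 2 is the highest point for every gene, radiated library 1 lies above the non-radiated libraries for most fast and shared forms and for no slow form, and radiated library 3 lies mostly among the non-radiated points.

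Myosin heavy chains are the motor of the thick filament. Myh4 (ENSMUSG00000057003, mm10 chromosome 11, 67238029 to 67260446) was at 76.2, 131 and 62.9 CPM in non-radiated libraries 1, 2 and 3 and at 338, 898 and 65.8 CPM in the radiated ones. Radiated libraries 1 and 2 were above all controls and radiated library 3 was among them. The fitted difference was 2.27 in log2 (SE 0.72; edgeR quasi-likelihood test with Benjamini-Hochberg adjustment, adjusted p = 0.0967). Myh1 (chromosome 11, 67200052 to 67224575) was at 6.97, 11.6 and 8.05 CPM without radiation and at 8.56, 93.0 and 15.7 CPM with it. Unlike Myh4, it was not above the controls in radiated library 1, while radiated library 3 was. Myh2 (chromosome 11, 67171027 to 67197517) was at 3.51, 13.1 and 3.56 CPM and at 4.65, 129 and 8.02 CPM, so radiated library 2 alone was above the controls. The slow heavy chain Myh7 (chromosome 14, 54970688 to 54994634) was at 1.15, 1.96 and 0.472 CPM without radiation and at 0.660, 11.0 and 3.70 CPM with it. Here radiated library 1 lay within the control range, and radiated library 3 lay above it: its 165 counts have an exact 95% Poisson interval of 3.15 to 4.31 CPM, against 1.45 to 2.59 CPM for the highest control, with counting error only. The log2 fold changes of Myh1, Myh2 and Myh7 were 2.16, 2.89 and 2.18, with edgeR adjusted p of 0.126, 0.182 and 0.164. With the replicate number as a block, the edgeR fit compares libraries within numbers 1, 2 and 3, a pairing that the labels do not state. In that fit Myh4 and Myh2 were called (adjusted p = 0.0428 for each) and Myh1 and Myh7 were not (0.0677 and 0.0866). The 3 fast genes lie side by side and are close paralogs, and how reads that match several of them were counted is not given in the sources used here.

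The light chains sit on the neck of the myosin head. The fast essential light chain Myl1 was at 9.52, 15.8 and 6.96 CPM in the non-radiated and at 40.3, 127 and 8.63 CPM in the radiated libraries. Its slow partner Myl3 was at 0.274, 0.439 and 0.260 CPM and at 0.291, 6.54 and 0.874 CPM. Radiated library 1 was thus above the controls for the fast form and among them for the slow form, and radiated library 3 the reverse. The fast regulatory light chain Mylpf was at 13.8, 18.4 and 8.75 CPM without radiation and at 42.2, 116 and 9.68 CPM with it. For the slow form Myl2 the values were 1.54, 2.0 and 1.39 CPM and 0.634, 7.15 and 1.95 CPM, and radiated library 1 lay below every control. Log2 fold changes were 2.47 for Myl1, 3.05 for Myl3, 2.06 for Mylpf and 1.02 for Myl2, with edgeR adjusted p of 0.0892, 0.112, 0.117 and 0.438. With the replicate block in edgeR, Myl1, Myl3 and Mylpf were called (adjusted p = 0.0219, 0.0306 and 0.0363) and Myl2 was not (0.546).

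In the troponin complex of the thin filament the fast subunits were high in radiated libraries 1 and 2, and the 3 slow subunits differed from each other. Tnnt3, the fast tropomyosin-binding subunit, was at 20.5, 39.8 and 16.3 CPM in the non-radiated and at 72.7, 249 and 20.3 CPM in the radiated libraries. Tnni2, the fast inhibitory subunit, was at 11.1, 16.6 and 8.45 CPM and at 35.1, 122 and 9.86 CPM. Tnnc2, the fast calcium-binding subunit, was at 8.89, 15.8 and 7.83 CPM and at 42.9, 135 and 8.49 CPM. In all 3 fast subunits radiated libraries 1 and 2 were above the controls and radiated library 3 was among them. The slow Tnnt1 was nearly level, at 4.22, 5.39 and 3.87 CPM without radiation and 3.22, 5.79 and 3.59 CPM with it, so that radiated libraries 1 and 3 lay below every control, with a log2 difference of -0.08 (SE 0.23; adjusted p = 0.879 by edgeR). Tnni1 had 6, 9 and 3 counts in the non-radiated and 9, 70 and 11 in the radiated libraries, and was the member that did not pass the filter on low counts. In CPM its radiated libraries 1 and 3 lay within the control range. Tnnc1 was at 0.658, 0.759 and 0.590 CPM and at 0.502, 1.93 and 1.30 CPM, so radiated libraries 2 and 3 were above the controls and radiated library 1 below them. The fast subunits had log2 fold changes of 2.19, 2.23 and 2.55 for Tnnt3, Tnni2 and Tnnc2, with edgeR adjusted p of 0.116, 0.103 and 0.0852, and all 3 were called with the replicate block (adjusted p = 0.0213, 0.035 and 0.033). For Tnnc1 the difference was 0.93 in log2 (adjusted p = 0.244 by edgeR, 0.225 with the block).

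Of the forms shared by fibre types, the 6 with the highest mean CPM per kilobase of gene length were Acta1, Ckm, Tpm2, Tcap, Ttn and Mb, at 38.0, 27.4, 12, 8.29, 7.96 and 7.94 CPM per kilobase. Acta1, the actin of the thin filament, was at 13.1, 24.2 and 14.1 CPM without radiation and at 55.8, 204 and 15.3 CPM with it. Ckm, the muscle creatine kinase, was at 9.13, 20.6 and 8.97 CPM and at 45.3, 138 and 9.99 CPM. Both followed the fast forms, high in radiated libraries 1 and 2. Ttn was at 328, 453 and 257 CPM in the non-radiated and at 1059, 3116 and 366 CPM in the radiated libraries. Tcap, which caps titin at the Z-disc, was at 1.21, 3.59 and 1.93 CPM and at 5.34, 33.2 and 1.90 CPM. Mb, the oxygen store myoglobin of oxidative fibres, was at 2.03, 5.11 and 1.51 CPM and at 2.98, 43.6 and 4.39 CPM, with radiated libraries 1 and 3 inside the control range. Tpm2, a tropomyosin, stood apart with 26.8, 31.7 and 29.1 CPM without radiation and 26.5, 75.6 and 20.3 CPM with it, so that 2 of the 3 radiated libraries lay below every control. Log2 fold changes ran from 0.49 for Tpm2 (edgeR adjusted p = 0.548) to 2.64 for Tcap (0.123) among these 6, with 2.44 for Acta1 (0.0854), 2.35 for Ckm (0.103), 2.13 for Ttn (0.0704) and 2.63 for Mb (0.145). With the replicate block in edgeR, Acta1, Ckm, Tcap, Ttn and Mb were called (adjusted p = 0.0403, 0.0269, 0.0446, 0.0198 and 0.0196) and Tpm2 was not (0.674).

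The remaining fast members were the calcium pump Atp2a1, the calcium buffer Pvalb, the Z-disc protein Actn3 and the thick filament protein Mybpc2, with log2 fold changes of 2.29, 2.43, 2.06 and 1.95. With the replicate block in edgeR, Atp2a1, Pvalb and Mybpc2 were called (adjusted p = 0.0448, 0.0188 and 0.00844) and Actn3 was not (0.0504). Mybpc2 (ENSMUSG00000038670, chromosome 7, 44501699 to 44524669) was at 10.4, 15.6 and 10.2 CPM in the non-radiated and at 37.8, 85.2 and 15.6 CPM in the radiated libraries, and every radiated library lay above every control, radiated library 3 only just. It was the member that passed the test (SE 0.50; adjusted p = 0.0473 by edgeR), and across 14 settings of the processing it was called in 7, with adjusted p from 1.34e-18 to 0.159. The remaining shared members are the calcium release channel Ryr1, its voltage sensor Cacna1s, the calcium store protein Casq1, the filament and Z-disc proteins Neb, Actn2, Myoz1 and Des, and Mybpc1, with log2 fold changes from 1.77 for Ryr1 to 3.15 for Mybpc1. Mybpc1, the thick filament protein also called the slow form but present in fast fibres too, was at 2.11, 4.51 and 2.45 CPM and at 6.08, 66.8 and 5.27 CPM, and its groups did not overlap either (edgeR adjusted p = 0.0792, and 0.0174 with the replicate block). Of these 8 shared members the block called all but Ryr1 and Cacna1s (edgeR adjusted p = 0.107 and 0.0882).

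Over the members, 31 of 32 passed the filter and 1, Mybpc2, was called higher at an adjusted p under 0.05 by edgeR, beside 4.56% of the 18757 genes tested. None was called lower, beside 3.24% of all genes, which with the higher ones makes 7.80% called. At an unadjusted p under 0.05 there were 27, all higher (12 fast, 2 slow and 13 shared), beside 12.2% of all genes. DESeq2's Wald test also called 1 (5.78% of all genes higher) and limma-voom called 0 (4.23%). Members at an unadjusted p under 0.05 numbered 23 and 3 in these tests, for which the share of all genes is not given here. With library totals alone as the scaling edgeR called 30 members, beside 4.55% of all genes, and with no filter on low counts 27 of 32, beside 4.49%. The median log2 fold change of the tested members was 2.25 for fast forms, 1.02 for slow forms and 2.33 for shared forms, with 0.00 over all genes tested. CPM did not overlap between groups for 2 members, both higher, beside 14.4% of all genes. With the replicate number as a block, 22 of 31 were called higher, 10 of 12 fast, 1 of 5 slow (Myl3) and 11 of 14 shared forms, beside 5.51% of all genes. Myh4 was among them, at 1.71 in log2 (adjusted p = 0.0428 by edgeR with the block).

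Which members were called depended on which radiated library was in the fit. Without radiated library 3, 21 members were called higher by edgeR (10 fast, 0 of 5 tested slow and 11 shared), beside 4.85% of all genes. Without radiated library 1, 4 were called, Myh1, Myh7, Myl3 and Tnnc1, of which 3 are slow forms, beside 2.27% of all genes. Without radiated library 2, 0 were called, beside 3.57% of all genes called higher. There 9 members had an unadjusted p under 0.05, and the median log2 fold change of the 31 tested members was 0.95. Leaving out non-radiated library 1, 2 or 3 also left 0 called, beside 2.80%, 2.23% and 4.08% of all genes called higher. Members at an unadjusted p under 0.05 then numbered 17, 28 and 9. The share of all genes at an unadjusted p was worked out only for the first edgeR fit above. The unadjusted counts without 1 library thus have no such share beside them.

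Set against the mean of the 3 non-radiated libraries, radiated library 2 was at a median of 10.3-fold for the 12 fast forms, 5.49-fold for the 6 slow forms and 10.9-fold for the 14 shared forms, and all 32 members were above every control. Radiated library 1 was at a median of 3.11-fold for fast, 0.734-fold for slow and 2.93-fold for shared forms. There 10 of 12 fast forms and 11 of 14 shared forms were above every control, but 0 of 6 slow forms were, and 3 slow forms (Myl2, Tnnc1 and Tnnt1) were below. Radiated library 3 was at a median of 0.800-fold for fast, 1.59-fold for slow and 0.874-fold for shared forms. There 6 members were above every control (Mybpc1, Mybpc2, Myh1, Myh7, Myl3 and Tnnc1), 21 were within the control range and 5 were below it (Actn3, Cacna1s, Ryr1, Tnnt1 and Tpm2). The median of all genes tested was 1.0-fold in each of the 3 libraries. Within replicate numbers the median fold of the members was 3.19, 6.95 and 1.26 for numbers 1, 2 and 3.

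**Figure D2:**
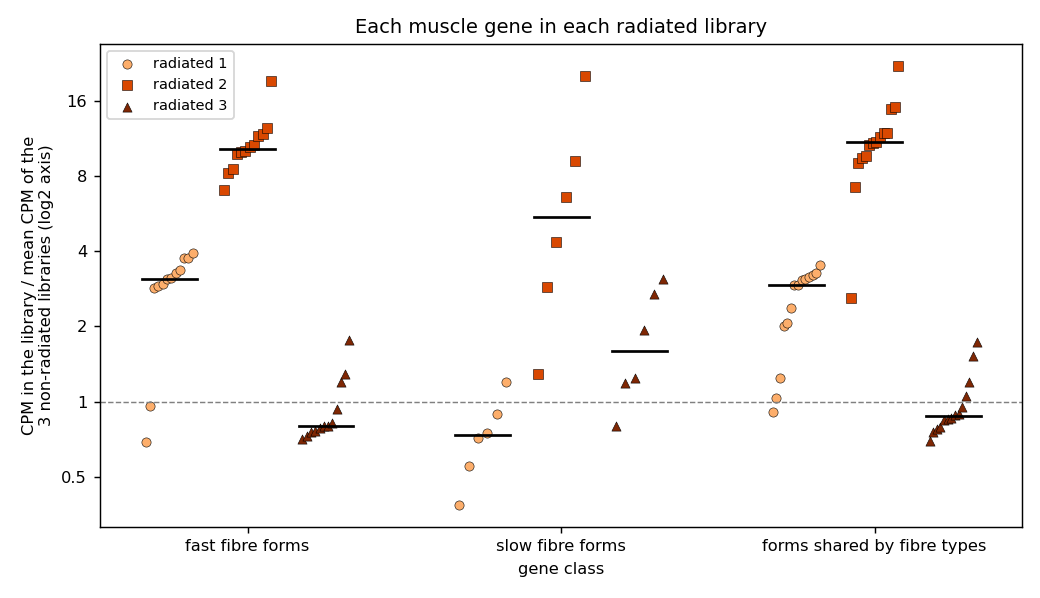
CPM of each member in each radiated library divided by the mean of the 3 non-radiated libraries, on a log2 axis, by class; points are genes and black bars are medians. Medians for fast forms are 3.11, 10.3 and 0.800 in radiated libraries 1, 2 and 3, and for slow forms 0.734, 5.49 and 1.59.

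The fibre types were next compared inside each library, where depth and scaling cancel. Counts per kilobase of the fast forms made up 95.9%, 96.8% and 95.5% of fast plus slow forms in the non-radiated libraries and 99.2%, 98.6% and 94.3% in the radiated ones. Radiated libraries 1 and 2 were above the controls and radiated library 3 was below them. The difference of the group means, 1.28 percentage points, was smaller than the spread among radiated libraries (SD 2.69, n = 3; two-sided exact permutation p = 0.4). Of the 6 slow forms, the nearly level Tnnt1 had the highest mean, 1.97 CPM per kilobase. The others were at 0.111 to 1.25 CPM per kilobase. The fast share can therefore move with the level of the fast forms over this 1 gene, and that part was not tested.

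Of the 4 heavy chains, by counts per kilobase, Myh4 held 88.0%, 84.9% and 85.2% in the non-radiated and 96.4%, 81.4% and 73.1% in the radiated libraries. Radiated library 1 had the highest and radiated library 3 the lowest Myh4 share of all 6. Myh1 held 7.62%, 7.10% and 10.3% without radiation and 2.31%, 7.99% and 16.5% with it. Myh2 held 3.42%, 7.13% and 4.07% and then 1.12%, 9.89% and 7.51%, and its share was highest in the library numbered 2 of each group. The slow Myh7 held 0.933%, 0.885% and 0.448% and then 0.132%, 0.698% and 2.88%. Of plain heavy chain reads, Myh7 took 3.97% in radiated library 3 (165 of 4160, 95% Wilson interval 3.41% to 4.6%) and 0.188% in radiated library 1 (25 of 13332, 0.127% to 0.277%), against 0.630% to 1.31% in the controls. For each of the 4 shares the difference of the group means was smaller than the SD among the radiated libraries (two-sided exact permutation p from 0.7 to 0.9 over 4 comparisons, Benjamini-Hochberg adjusted p = 0.9 for each). No p under 0.1 was possible with 3 against 3 libraries, so the test could not have called a share under 0.05.

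**Figure D3:**
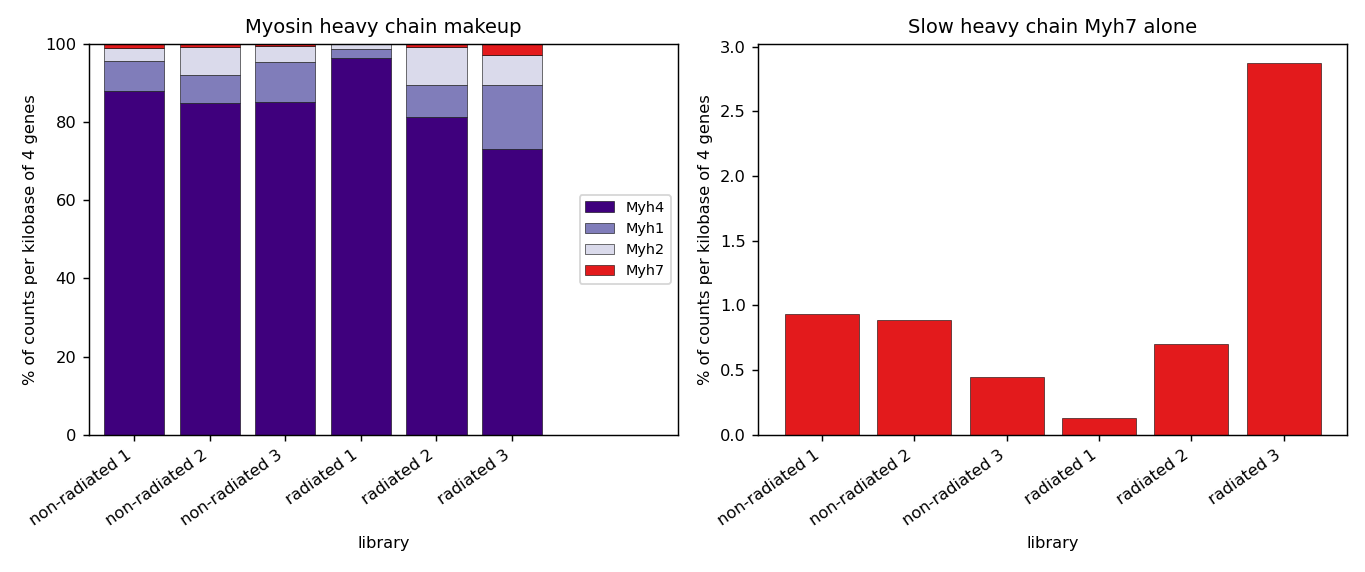
Left, each library's counts per kilobase of Myh4, Myh1, Myh2 and Myh7 as percentages of their sum; right, the Myh7 percentage alone on its own axis. Myh4 spans 73.1% to 96.4% in the radiated libraries against 84.9% to 88.0% in the non-radiated ones, and Myh7 is highest, at 2.88%, in radiated library 3 and lowest, at 0.132%, in radiated library 1.

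The same order held in most of the 6 protein pairs when the log2 ratio of fast to slow form was taken per kilobase. For heavy chains it was 6.71, 6.79 and 7.76 in the non-radiated and 9.54, 7.15 and 5.07 in the radiated libraries. For essential light chains it was 4.38, 4.44 and 4.02 and then 6.38, 3.61 and 2.62, and for regulatory light chains 4.30, 4.33 and 3.78 and then 7.17, 5.16 and 3.45. Radiated library 1 was above, and radiated library 3 below, every control in these 3 pairs. Troponin T gave 2.94, 3.54 and 2.73 and then 5.15, 6.09 and 3.16, troponin I 7.23, 6.72 and 7.94 and then 8.39, 7.80 and 6.53, and troponin C 4.11, 4.73 and 4.08 and then 6.76, 6.50 and 3.08. Radiated library 1 was above every control in these 3 pairs as well, whereas radiated library 3 was below them for troponins I and C and among them for troponin T. Across the 6 pairs the group difference ran from -0.07 (essential light chain) to 1.73 (troponin T), with two-sided exact permutation p from 0.2 to 1.0 (adjusted p from 0.96 to 1.0). With 3 against 3 libraries no p under 0.1 was possible, so this test could not have called any pair under 0.05.

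**Figure D4:**
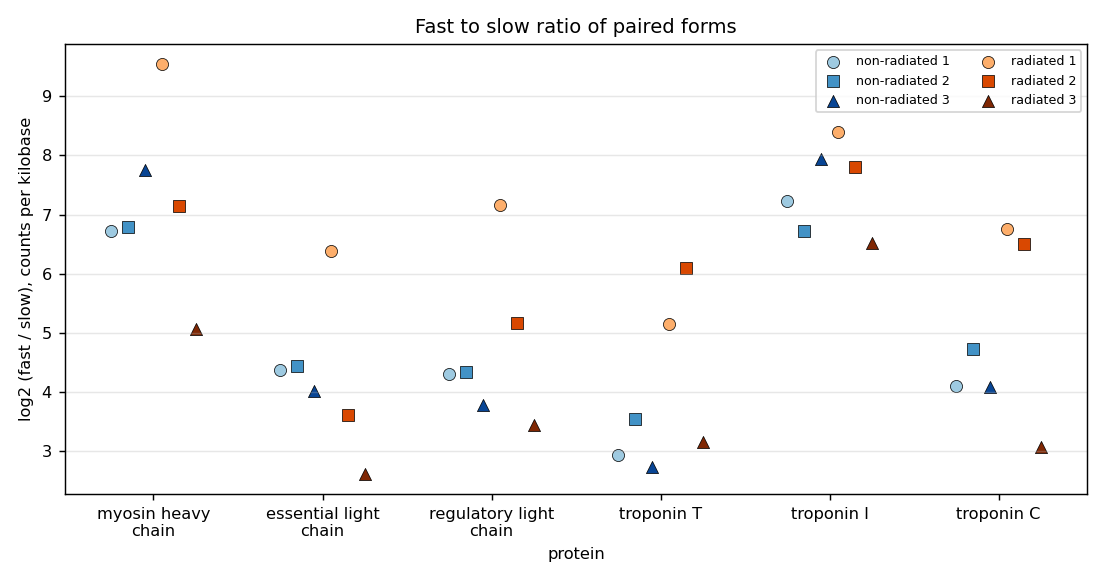
Log2 ratio of fast to slow form, from counts per kilobase, for 6 pairs of proteins; each point is 1 library. Radiated library 1 is above the 3 non-radiated libraries in all 6 pairs, and radiated library 3 is below them in all pairs but troponin T.

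Each member was also set against the geometric mean of the 14 shared forms in its own library, and that log2 level was compared with its mean in the 3 controls. The 14 need not be equal across fibre types, so this reference may itself move with them. In radiated library 1, Tnnc2, Myl1 and Myh4 were 0.77, 0.71 and 0.70 above the control mean on this scale. Myh1, Myh2, Tpm2, Mb and Actn2 were at -1.30, -1.52, -1.42, -1.03 and -0.83 and the 6 slow forms between -0.72 (Tnni1) and -2.64 (Myl2). In radiated library 2, Myh2, Mybpc1, Myl3 and Mb were at 1.11, 1.09, 0.92 and 0.67, and Tnnt1, Tpm2 and Tnnc1 at -3.08, -2.08 and -1.92. In radiated library 3, Myh7, Myl3, Tnnc1, Mybpc1, Myh1 and Mb were at 1.84, 1.45, 0.95, 0.86, 0.84 and 0.79. The fast forms other than Myh1, Myh2 and Mybpc2 lay between -0.45 (Mylpf) and -0.08 (Atp2a1), and Tpm2 was the lowest member there, at -0.54. The members thus did not move by 1 common factor in any radiated library. Tnnt1 and Tpm2 had the lowest folds of all members in radiated library 2, at 1.29 and 2.59, where the highest, Mybpc1, was at 22.1.

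Further muscle genes were read as lists chosen by function, which also hold 2 of the members, Actn3 among the energy genes and Des among the regeneration genes. Their calls stand beside 4.56% of all genes called higher and 3.24% called lower by edgeR. With the replicate block 5.51% of all genes were called higher. Of 20 further sarcomere genes 19 were tested, and 1, the myosin light chain kinase Mylk2, was called higher (0.987, 0.878 and 0.826 CPM against 4.41, 11.3 and 1.34, edgeR adjusted p = 0.0374), with 11 called under the replicate block, and their median log2 fold change was 2.17. The M-band gene Myom1 did not follow: it was at 64.8, 67.2 and 65.5 CPM without radiation and at 38.2, 66.4 and 26.5 CPM with it (edgeR adjusted p = 0.233). Xirp2 and Cmya5, a further pair of sarcomere-associated genes, had log2 fold changes of 2.33 and 1.81 (edgeR adjusted p = 0.0732 and 0.0841), and both were called with the replicate block (0.00485 and 0.0494).

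Of 18 further calcium and coupling genes 15 were tested and 4 were called higher, 6 under the block, beside 4.56% and 5.51% of all genes. The 4 were Cacnb1, Cacna2d1, Bin1 and Scn4a (a sodium channel of muscle), with log2 fold changes of 0.69, 0.60, 0.43 and 1.18 and edgeR adjusted p of 0.0118, 0.0340, 0.00559 and 0.0199. Cacnb1, a calcium channel subunit, was at 4.14, 4.11 and 4.55 CPM and then 7.11, 6.07 and 7.60 CPM, so that, unlike the fast members, it was as high in radiated library 3 as in the others. Scn4a was at 3.95, 3.91 and 4.79 CPM and then 7.79, 13.9 and 7.06 CPM, and Cacna2d1 at 13.7, 11.5 and 13.1 CPM and then 18.8, 23.7 and 15.8 CPM, both above the controls in all 3 radiated libraries. Bin1, a membrane-shaping gene that many tissues express, went from 30.8, 34.8 and 33.6 to 43.3, 46.6 and 43.9 CPM. Atp2a2, the calcium pump of slow fibres, which other tissues also express, was level at 239 to 249 CPM without and 229 to 247 CPM with radiation (edgeR adjusted p = 0.763). The median of this list was 1.10.

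Of 16 muscle energy genes, Actn3 included, all were tested and 1, Lpl, the lipoprotein lipase of fat and muscle, was called higher, at 122, 115 and 104 CPM and then 268, 238 and 214 CPM (1.08 in log2, SE 0.09, adjusted p = 0.000147 by edgeR). The glycogen phosphorylase gene Pygm was at 11.9, 20.5 and 12.2 CPM and then 33.7, 94.9 and 13.2 CPM (edgeR adjusted p = 0.123, and 0.0369 with the replicate block). Under the block 10 of the 16 were called, beside 5.51% of all genes called higher, and the list's median was 2.03. For the glycolytic enzyme gene Pfkm, at 50.5, 56.3 and 50.2 and then 56.4, 107 and 43.2 CPM, the log2 difference was 0.40 (adjusted p = 0.451 by edgeR).

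Of 16 genes of muscle stem cells and regenerating fibres 3 passed the filter, Cdh15, Megf10 and the member Des, and the other 13 reached at most 1.55 CPM in a library (Myf6, radiated library 2). Pax7, the stem cell gene, had 1 to 8 counts per library, Myod1 0 to 10 and Myog 0 or 1, and the embryonic heavy chain Myh3 had 4, 0 and 0 counts in the non-radiated and 17, 61 and 4 in the radiated libraries. Cdh15, an adhesion gene of that list, fell by 1.03 on the log2 scale (4.64, 4.11 and 6.23 CPM against 2.88, 2.55 and 1.97, edgeR adjusted p = 0.0146) and Megf10, an engulfment receptor, rose by 0.56 (9.22 to 10.7 CPM against 14.2 to 16.2, edgeR adjusted p = 0.00948). Of 8 atrophy genes 2 were called higher, beside 4.56% of all genes. They were the ubiquitin ligase Fbxo32 at 0.45 (edgeR adjusted p = 0.0393) and the transcription factor Foxo1 at 0.52 (0.00383). Fbxo32 went from 16.5, 17.5 and 15.7 to 21.5, 26.5 and 19.8 CPM. Trim63, another ubiquitin ligase of muscle, was at 0.713, 0.519 and 0.212 CPM without and 1.82, 5.21 and 0.493 CPM with radiation (log2 difference 2.42, edgeR adjusted p = 0.0968, and 0.013 with the replicate block). Mstn, the growth inhibitor myostatin, and Murc had log2 differences of 2.27 and 2.07 (adjusted p = 0.235 and 0.116 by edgeR, 0.0507 and 0.0771 with the block). In these 3 genes radiated library 2 was the highest and radiated library 3 lay within the control range, whereas Foxo1 was highest in radiated library 3. Foxo3 and Fbxo30 of the same list had log2 fold changes of -0.15 and -0.25 (edgeR adjusted p = 0.234 and 0.0749).

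Markers of other tissues were followed beside the muscle genes. Their edgeR calls stand beside 4.56% of all genes called higher and 3.24% called lower. The heart genes Myl7, Nppa and Nppb had 0 counts in all 6 libraries, which allows at most 0.0562 to 0.120 CPM by counting error, and Myh6 had 2 to 14 counts. Of the 5 heart list genes tested, Tnnt2 and Myl4 were called higher, with log2 fold changes of 1.61 and 0.94, and the list's summed CPM was 11.8 to 14.6 without and 23.0 to 27.9 with radiation. Myl4 made up most of that sum, at 11.2, 9.94 and 11.6 and then 19.6, 19.0 and 24.4 CPM, and Tnni3 was at -0.17 in log2. Skin keratins Krt14 and Krt1 had 0 counts throughout, and that list summed to 0.393 to 0.829 CPM. Of 8 adipocyte markers 7 were called higher, with summed CPM of 85.5 to 96.9 in the non-radiated and 243, 232 and 179 in the radiated libraries. Among them Cfd, Plin4 and Cidec had log2 differences of 3.03, 3.16 and 3.96 and Adipoq and Fabp4 of 1.02 and 0.54. Of 8 tendon and fascia markers 6 were tested and Thbs4 and Fmod were called higher (log2 fold changes 2.02 and 1.15). Scx, Mkx, Egr1 and Chad were not called (0.93, 0.15, -0.01 and -0.25). Summed CPM of the tendon list was 78.6, 49.7 and 64.2 and then 88.3, 96.1 and 82.1, and Fmod and Chad make up most of it. Tnmd, which did not pass the filter, was at 0.0823, 0.120 and 0.0708 and then 0.449, 1.07 and 0.112 CPM. Of 8 smooth muscle markers 7 were tested and Tagln, Acta2 and Lmod1 were called higher (2.40, 1.72 and 0.98), with summed CPM of 135 to 145 and then 160, 156 and 138, while Mylk and Smtn, which make up most of that sum, were at 0.01 and -0.13 (edgeR adjusted p = 0.931 and 0.497). Of 8 nerve and Schwann cell markers 5 were tested and Mbp was called lower at -0.25 (edgeR adjusted p = 0.0363, and 0.0504 with the replicate block), with sums of 130 to 137 and then 115, 118 and 103 CPM. The adipocyte and tendon sums were higher in all 3 radiated libraries, including number 3, where the fast muscle forms summed to 201 CPM against 199, 340 and 168 in the controls. The part of these other tissues in the muscle levels was not tested.

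Bone and marrow markers, which check the tissue label, were present in all libraries. Col1a1, the main bone collagen, was at 5435, 4079 and 6185 CPM in the non-radiated and 3767, 2984 and 3507 CPM in the radiated libraries. Of the 8 osteoblast and osteocyte markers, Col1a1 and Phex were called lower, beside 3.24% of all genes, and 0 higher. Their log2 fold changes were -0.61 and -1.04 (edgeR adjusted p = 0.0470 and 0.00909). Across 14 settings Col1a1 was called in 8 and Phex in 14. The 8 markers summed to 7134, 5227 and 7874 and then 5122, 4044 and 4634 CPM, most of it Col1a1. The lowest sum in each group was that of library 2, which had the highest muscle sum of its group. The 8 erythroid and neutrophil markers summed to 15476 to 18200 and then 15849 to 18896 CPM. Hbb-bs, the highest of them, was above every control in each radiated library (log2 fold change 0.33, edgeR adjusted p = 0.182). The neutrophil genes Elane, Mpo, S100a8 and Camp were below every control in each. Their log2 fold changes were -0.43, -0.38, -0.47 and -0.26 (edgeR adjusted p = 0.0683, 0.0512, 0.0746 and 0.140). With the replicate block Elane and Mpo were called lower (edgeR adjusted p = 0.0495 and 0.0475).

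**Figure D5:**
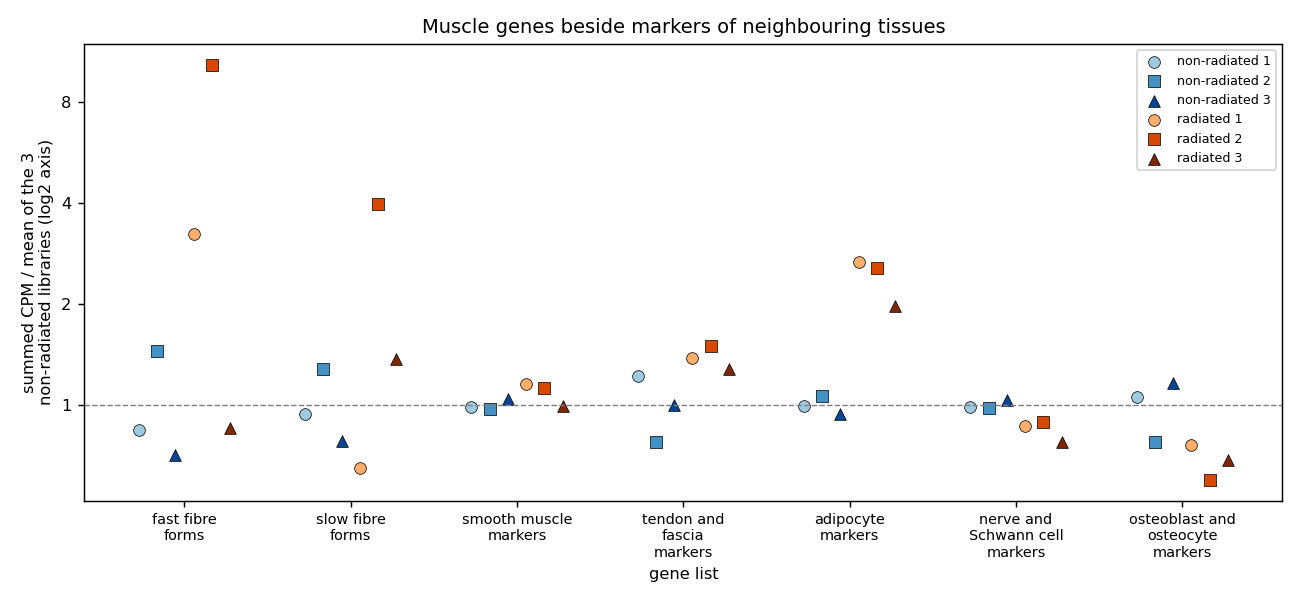
Summed CPM of 7 gene lists in each library divided by the mean of the 3 non-radiated libraries, on a log2 axis. Fast forms range widely among the radiated libraries, while adipocyte markers are higher in all 3 of them and osteoblast and osteocyte markers are lowest in radiated library 2.

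Of the 32 members 17 overlap another gene in the table. The kit marks strand, but whether the counting used it is not given in the sources used here, so reads of Tnnc1 and Nisch, Tnnc2 and Ube2c or Acta1 and Gm20388, which overlap on opposite strands, may not be separable. Nisch had 6747 to 14688 counts per library against 19 to 103 for Tnnc1, so the level of Tnnc1 is the least certain of these. The labels do not say that libraries of a group came from separate mice, so the p-values measure the spread between these libraries, part of which may be technical.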

How the data were processed

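The authors deposited 1 table of whole-number counts for 43346 genes, with 1 count column per library and the gene lengths, per the file headers. STAR 2.5.2b, featureCounts, Subread and bcl2fastq and the build mm10 are named in the submitters' processing notes. The annotation and strand setting are not given in the sources used here. The 6 deposited RPKM columns were not used.

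The counts went as deposited into edgeR 4.0.16 (R 4.3.3). After filterByExpr (at least 10 counts in enough libraries, 15 in total) and TMM scaling, the quasi-likelihood model held the group alone and all 6 libraries. Adjustment was by Benjamini-Hochberg across the 18757 genes kept, and a gene was called under 0.05. The standard error is the size of the log2 fold change divided by the square root of F. Shares and ratios went through an exact two-sided permutation test, with 20 possible labelings. Fast to slow ratios used 0.5 reads added to each count. Of 173 list entries in 16 lists, 173 were found, 2 of them by gene ID.

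The members and lists were chosen with earlier results of these data known. By the rule for named genes, the genes of the 6 fast and slow pairs and the 6 shared forms highest per kilobase have full values. The rule also takes from each other list the 3 genes highest in CPM and up to 3 called ones. For lists of other tissues the text names only some of these and gives the rest as sums. Genes outside that rule, among them Mybpc2, Mybpc1, Trim63, Mstn, Murc, Pax7, Myod1, Myog, Myh3, Myh6, Myl7, Nppa, Nppb, Krt14 and Krt1, were named after their values were seen.

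Both groups carry numbers 1 to 3 and are opposite legs. Deviations from group means correlated at 0.166, 0.277 and 0.187 for equal numbers and from -0.170 to -0.008 for unequal ones, across genes, which are not independent replicates. By this check the numbers were taken to pair the libraries, and the block was an alternative. The labels do not say that equal numbers mark the same mouse, and the check holds only 3 equal-number values. Deviations cancel out within a group, so the values for equal and unequal numbers are not separate evidence. Nor can the check tell a shared mouse from anything else that libraries of equal number share. Calls with the block thus rest on an assumed pairing. Replicates differed by more than sampling noise (chi-square divided by its degrees of freedom 16.6 to 580). Other alternatives were DESeq2 1.42.0 size factors and its Wald test, limma-voom (limma 3.58.1), library totals alone, 2 other filters and leaving out each library. The fit was tested on simulated counts of 18559 genes, where 91% of 100 genes changed 2-fold and 99% of 100 changed 4-fold were recovered. Simulated replicates of every gene differed by the same 13% beyond counting noise. Among the radiated libraries the highest member level was 1.80 (Tnnt1) to 27.8 (Myh2) times the lowest. These recovery rates therefore do not carry over to the members.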

Additional observations from a re-analysis of the deposited data

How the results depend on the processing

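Of the genes of the whole table, 1463 were called, and 764 to 1376 when each library was left out in turn, lowest with radiated library 1 left out (764), then non-radiated library 2 (819) and 1 (905). For the members the count of 1 became 30 with library totals alone, 27 with no filter on low counts, 0 with a mean of at least 1 CPM, 0 with limma-voom, 22 with the replicate block, and 0 to 21 without 1 library. Of 76 further muscle genes 59 were tested and 10 called, 9 higher and 1 lower, beside 7.80% of all genes in either direction. That count of 10 became 46 with library totals alone, 48 with no filter, 16 with DESeq2's Wald test, 32 with the replicate block and 5 to 45 without 1 library. Of all 18757 genes tested, 1000 were called with library totals alone, 1938 with DESeq2's Wald test, 1367 with limma-voom and 1670 with the block. With no filter 2073 of 28798 were called, and with a mean of at least 1 CPM 1391 genes. The prior degrees of freedom of edgeR were 5.18, against 16.5 with no filter and infinite with library totals alone, where a gene's own spread did not enter. Library totals alone also moved the median log2 difference over all genes to 0.19, which turned Tnnt1 (0.14), Atp2a2 (0.16) and Foxo3 (0.046) positive. DESeq2 gave no adjusted p for 4 members.

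Without 1 library, log2 fold changes ran from -0.048 to 3.73 for Myh2, -0.31 to 1.49 for Myl2, -0.39 to 0.071 for Tnnt1, -0.32 to 0.81 for Tpm2 and -0.070 to 0.65 for Pfkm, and the negative ends of Myh2, Myl2, Tpm2 and Pfkm came without radiated library 2. The other 27 tested members were positive in each alternative. In the same fits the group difference in log2 fast to slow ratio ran from -0.98 to 1.25 for heavy chains, -1.17 to 0.72 for essential light chains and -0.14 to 0.80 for troponin I, and that in heavy chain shares from -8.77 to 2.91 percentage points for Myh4, -3.20 to 3.91 for Myh1, -0.56 to 3.83 for Myh2 and -0.34 to 1.03 for Myh7. The cause was not tested. The regulatory light chain and troponin T and C ratios, the fast share and the member share of counts kept their direction in each alternative. Depth limits the slow forms most: Tnni1 had 3 to 70 counts per library.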
